A study of Homo sapiens with 480 samples.

Results

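Among T cell leukaemia cells treated with the histone deacetylase inhibitor SAHA, some had reads of CDKN1A and others had none, and these 2 classes were compared. A cell counted as CDKN1A-positive when its rounded CDKN1A count was 1 or more, and as negative when it was 0. The members were thus chosen by the measured CDKN1A counts. Of the SAHA-treated cells that passed the filters on depth and genes, 71 were positive and 100 were negative, out of 410 kept cells and 480 wells in the whole study. The positive class held 53 cells of the line J-Lat A2 and 18 of Jurkat, and the negative class held 82 and 18. Shares and levels of CDKN1A are therefore given as a description with no test.

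The study sorted single cells into 5 plates of 96 wells and read full-length cDNA from each. Jurkat cells are an established human line from a leukaemia of CD4 T cells. J-Lat A2 is a Jurkat clone with an integrated construct in which the HIV LTR drives Tat and GFP, listed in the tables as HIVmini. All cells were cultured for 24 h with 0.1% DMSO as the vehicle control, with 1 uM SAHA, or with PMA at 1 ug/mL, a phorbol ester and activator of protein kinase C. Jurkat cells with SAHA were on the 3 plates of the second batch (P2769, P2770 and P2771), and J-Lat A2 cells with SAHA on those and on P2449 and P2458, taken as the first batch from the number of plates that the design gives for each. J-Lat A2 is 1 clone, and no label ties a plate to a culture of its own, so p-values over plates measure the spread between plates, which may be technical.

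CDKN1A encodes p21, a protein that binds cyclin-dependent kinases and PCNA and holds cells in G1. It is the best known transcriptional target of p53, yet histone deacetylase inhibitors also raise it without p53, through GC boxes bound by Sp1 and Sp3 close to its start site. Jurkat cells lack functional p53.

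The gene lies on chromosome 6 from 36676460 to 36687339 on the plus strand (GRCh38, GENCODE annotation), where the antisense RNA gene DINOL overlaps it from 36677609 to 36678559. The libraries do not keep strand, so reads of the 2 genes cannot be told apart over that stretch. The promoter window of CDKN1A from RefSeq (GRCh38.p14, chr6:36678464-36678763, plus strand) is shown because it holds the GC boxes through which the inhibitor is known to act. Capitals mark GGGCGG, searched on both strands with overlapping matches counted.

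CDKN1A: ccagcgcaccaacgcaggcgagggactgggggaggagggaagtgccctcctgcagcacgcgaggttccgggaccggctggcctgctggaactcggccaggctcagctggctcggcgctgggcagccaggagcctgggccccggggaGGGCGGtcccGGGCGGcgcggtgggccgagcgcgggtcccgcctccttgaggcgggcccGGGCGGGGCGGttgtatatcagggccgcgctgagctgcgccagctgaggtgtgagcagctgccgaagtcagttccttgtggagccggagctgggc

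The window held 4 matches, all on the plus strand, with first bases between positions -104 and -40 from the start site. Of 27305 RefSeq promoter windows of the same length, 44.6% held at least 1 match and 9.13% held as many. A match is a description of the letters and not a measured site.

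With SAHA, 39.3% of J-Lat A2 cells (53 positive and 82 negative, exact 95% interval 30.97 to 48.03) and 50.0% of Jurkat cells (18 of 36, 32.9 to 67.1) were CDKN1A-positive. With DMSO the same count gave 5 of 94 J-Lat A2 cells (5.32%) and 0 of 30 Jurkat cells, which allows a share of up to 10.0% (3 counts of the total; the exact 95% upper bound is 11.57%). These intervals and limits cover counting error only. With PMA, 12 of 79 J-Lat A2 cells (15.2%) and 4 of 36 Jurkat cells (11.1%) were positive, and all 4 of the latter were on plate P2771. The share in J-Lat A2 with SAHA was 34.5% on P2449, 31.6% on P2458, 45.5% on P2769, 37.5% on P2770 and 54.5% on P2771. Every one of these plates lay above the DMSO plates of the same line, which ran from 0.0% to 8.33%. In Jurkat with SAHA it was 33.3%, 58.3% and 58.3% on P2769, P2770 and P2771.

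The shares were also taken at equal depth, since a deeper cell is more likely to show a transcript. After thinning each cell to 100000 counts, 41.03% of the J-Lat A2 cells deep enough and 41.7% of the 36 Jurkat cells were positive with SAHA, and 5.49% of 91 and 0 of 30 were positive with DMSO. Thinning left out 18 J-Lat A2 cells with SAHA, 11 of them on P2458. In the first batch of J-Lat A2 the share was 32.8% unthinned and 39.6% thinned, and in the second 45.6% and 42.2%.

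Positive cells spanned a wide range of CDKN1A levels. In J-Lat A2 a positive cell had 1 to 90 counts with a median of 25, which is 3.26 to 193.2 CPM (counts scaled to the cell's total) with a median of 58.4 CPM. In Jurkat it had 1 to 45 counts with a median of 10.5, or 1.88 to 79.4 CPM with a median of 21.4 CPM. The 5 positive J-Lat A2 cells with DMSO had a median of 20.0 CPM. Near the threshold, 2 J-Lat A2 cells had 1 count, 2 had 2 and 2 had 3, and in Jurkat 1 cell had 1 count and 2 had 2, while 45 of 53 and 10 of 18 positive cells had 10 or more. At the edge of the depth filter, the shallowest kept cell had 0.101 of its plate's median total and the deepest well left out 0.0986. The filter left out 66 SAHA wells, and none of them had a CDKN1A count.

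**Figure D1:**
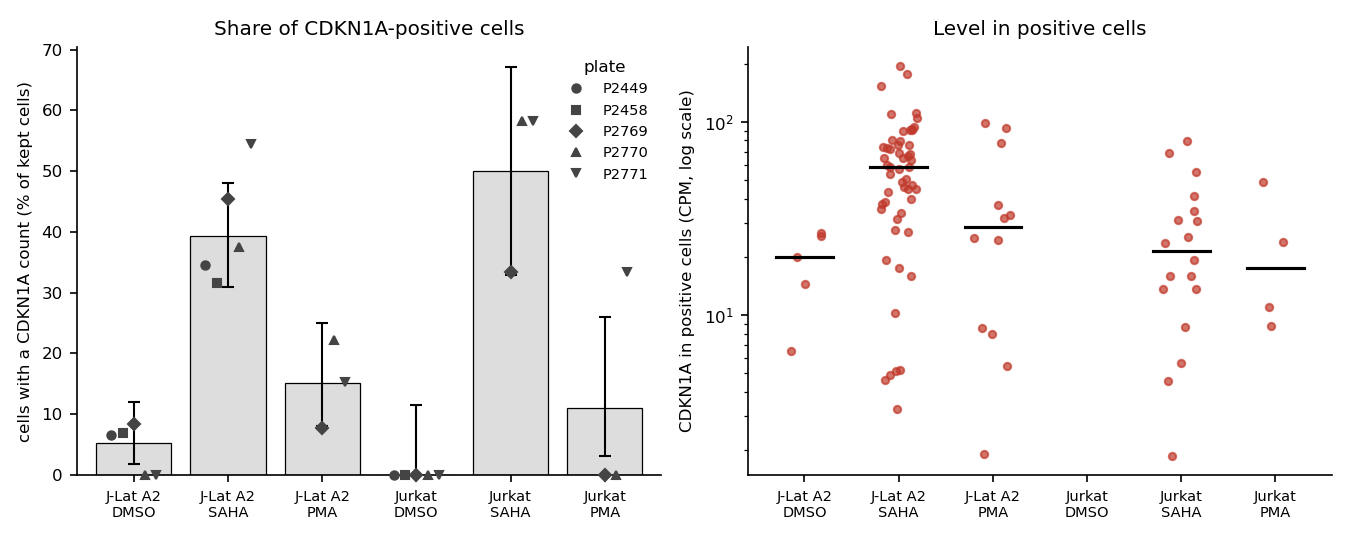
Left, the percentage of kept cells with a CDKN1A count by line and treatment, with exact 95% binomial intervals on the bars and 1 marker per plate. Right, CDKN1A in each positive cell in CPM on a log scale with the median as a line; the SAHA shares of 39.3% and 50.0% stand above 5.32% and 0.0% with DMSO, and positive J-Lat A2 cells had a median of 58.4 CPM against 21.4 CPM in Jurkat.

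Summed over the cells of a class on a plate, CDKN1A reached 50.2, 72.98, 69.5, 46.7 and 56.8 CPM in the positive J-Lat A2 cells of P2449, P2458, P2769, P2770 and P2771. In Jurkat the positive sums held 14.7, 35.4 and 28.7 CPM on P2769, P2770 and P2771. All-cell DMSO sums ran from 0.0 to 1.55 CPM in J-Lat A2 and were 0.0 in Jurkat.

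Before genes were compared, the quality of the cells in both classes was set side by side, since detection of a transcript can follow depth. The median well total of positive cells was 1.01 times that of negative cells over 8 plate pairs (5 of J-Lat A2, 3 of Jurkat), higher in 4 of 8 pairs (exact two-sided sign-flip permutation p = 0.820, smallest possible 0.00781). Positive cells had 1.08 times as many genes detected, higher in 6 of 8 pairs (exact permutation p = 0.0469), and this call was lost with depth matched within plates (1.03 times). In J-Lat A2 the medians were 4781 genes in positive and 4125 in negative cells. The negative class of J-Lat A2 included the poorest cells: its lowest cell had 539 genes against 2787 in the positive class, and its highest mitochondrial share was 41.5% against 8.67%. The medians of the mitochondrial share were close, at 4.96% in positive and 4.92% in negative J-Lat A2 cells and 4.54% and 4.48% in Jurkat.

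All 11 T cell markers were read among the kept SAHA cells, at differing shares. CD3D was detected in 87.7% of the cells, TRBC1 in 88.9% and LCK in 80.1%, while CD2 was read in 14.6%, CD7 in 12.3%, CD247 in 9.94% and TRAC in 16.4%. The B cell genes MS4A1, CD79B and CD22, the myeloid genes S100A8, S100A9, TYROBP and CSF1R, the epithelial and stromal genes EPCAM, CDH1, COL1A2, DCN, PDGFRB and KRT19, and the erythroid genes HBB, ALAS2, HBG1 and HBG2 had no read in any of them. Other members of these lists were read at low levels, CD79A in 14.6% of cells, CD68 in 14.04%, COL1A1 in 16.4%, PECAM1 in 11.1%, HBA2 in 21.6% and HBA1 in 14.04%. Summed over each list, B cell markers reached at most 25.5 CPM in any class and plate, myeloid markers 10.3, epithelial and stromal markers 43.9 and erythroid markers 16.9, against 640 to 1722 CPM for T cell markers.

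The comparison of genes asked whether SAHA-treated cells with CDKN1A reads differed from cells without them in the rest of the transcriptome. Counts were summed per line, plate and class, and edgeR's quasi-likelihood test compared positive with negative cells within each plate, with CDKN1A itself left out of the tests. No gene passed an adjusted p of 0.05 (Benjamini-Hochberg): 0 of 10953 (0.0%) in J-Lat A2, 0 (0.0%) in Jurkat, 0 (0.0%) in the mean of both lines and 0 (0.0%) in the difference of the lines. At an unadjusted p under 0.05, edgeR gave 287 genes in J-Lat A2 (2.62%), 273 in Jurkat (2.49%), 319 in the mean (2.91%) and 287 in the difference (2.62%). In the mean, 1.66% of tested genes were higher and 1.25% lower in positive cells at that p, and in the difference 1.12% were above and 1.5% below 0. DESeq2 on the same sums called 91 genes in J-Lat A2 (0.92% of those it adjusted) and 89 in Jurkat (0.881%). It called 94 in the mean (0.911%) and 77 in the difference (0.852%). In that order, 59, 41, 51 and 40 of these had under 20 CPM. All tested genes had a median level of 23.1 CPM, so low levels were not particular to these calls. limma with equal weight per cell called 1 gene, INSIG1, in J-Lat A2 (0.00913%) and 0 (0.0%) in each of the others.

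The width of the intervals depended on the level of the gene. For the 1852 genes at 100 to 500 CPM, the median unadjusted 95% interval of the mean change reached 1.32-fold to either side. For the 303 genes above 500 CPM it reached 1.17-fold. In J-Lat A2 and Jurkat alone it reached 1.40-fold and 1.54-fold at 100 to 500 CPM. At 20 to 50 CPM (2169 genes) that of the mean reached 2.39-fold, so smaller differences in genes of that level were not detectable here. These widths are not limits of a call, since a call after adjustment over all tested genes needed a larger change.

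**Figure D2:**
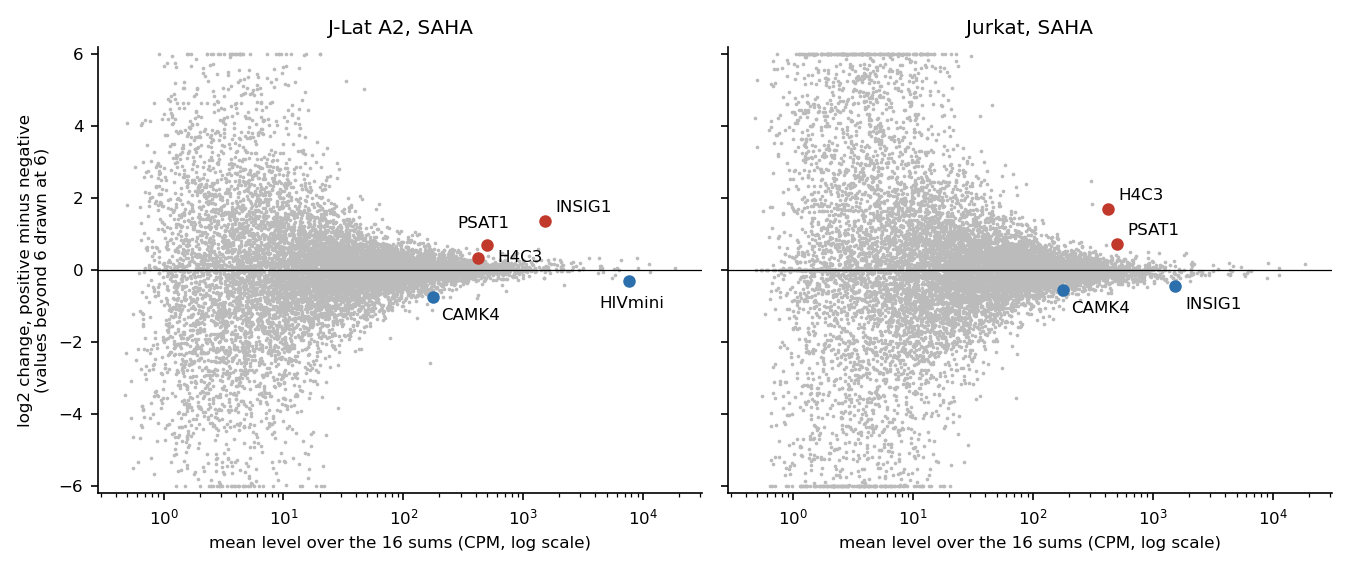
Each grey point is 1 of the tested genes, with its mean level over the 16 sums in CPM on a log scale across and its log2 change, positive minus negative, upward, for J-Lat A2 (left) and Jurkat (right). INSIG1 lies at 1.38 in J-Lat A2 and -0.45 in Jurkat, H4C3 at 0.34 and 1.71, PSAT1 at 0.70 and 0.74, CAMK4 at -0.76 and -0.56, and the construct HIVmini, shown for J-Lat A2, at -0.30.

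INSIG1, an endoplasmic reticulum protein that retains the sterol sensor SCAP and so restrains cholesterol synthesis, had the lowest p in J-Lat A2. It lies on chromosome 7 from 155297776 to 155310235. In negative cells its level was 1187, 643, 937, 1002 and 857 CPM on P2449, P2458, P2769, P2770 and P2771. In positive cells of the same plates it was 1483, 2729, 2481, 3105 and 2278 CPM. The lowest negative sum, on P2458, was the only SAHA sum within the DMSO range of 519 to 651 CPM. The log2 change was 1.38 ± 0.20 (SE, 95% interval 0.95 to 1.81; edgeR p = 1.01e-05, adjusted p = 0.111), higher in 5 of 5 plates, as were 256 of the tested genes (2.34%), while 314 (2.87%) were lower in all 5. It did not pass in that fit. Over its 18 alternatives the log2 change ran from 1.05 to 1.63 and the adjusted p from 9.66e-10 to 1.0, and it passed in 6 of them, among them thinning to 100000 counts (1.30, adjusted p = 0.0302), limma with equal weight per cell (1.51, adjusted p = 0.00891) and the fit without P2449 (1.63, adjusted p = 0.00268).

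The level within single cells showed the same order. The median J-Lat A2 cell had 1096 CPM of INSIG1 when positive and 451 CPM when negative, and the positive median was higher on each plate, by 1.71, 10.5, 2.22, 2.48 and 1.90 times on P2449, P2458, P2769, P2770 and P2771. INSIG1 was read in 52 of 53 positive and 64 of 82 negative J-Lat A2 cells. The tubulin TUBB4B, one of the most abundant messages, was read in 52 of 53 and 67 of 82. With only wells of at least 2000 genes and 0.5 of the plate median, the log2 change of INSIG1 was 1.35 (edgeR adjusted p = 0.190). The part of poor negative cells in the difference was not tested. The single richest cell held 9.79% of the positive and 12.8% of the negative INSIG1 reads.

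In Jurkat the positive cells had the lower values. INSIG1 was at 1369, 1625 and 1389.5 CPM in negative cells and at 734, 1412 and 1164 CPM in positive cells on P2769, P2770 and P2771, lower in 3 of 3 plates, although the groups overlapped. The log2 change was -0.45 ± 0.25 (95% interval -0.99 to 0.09; edgeR p = 0.0956, adjusted p = 1.0). The difference between the lines was 1.83 ± 0.32 (95% interval 1.13 to 2.52; edgeR p = 7.02e-05, adjusted p = 0.769) and did not pass. Of all tested genes, 29 (0.265%) were higher in all 5 J-Lat A2 plates and lower in all 3 Jurkat plates. The DMSO sums of Jurkat held 1022 to 1601 CPM.

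The promoter window of INSIG1 (RefSeq, GRCh38.p14, chr7:155297628-155297927, plus strand) is shown beside that of CDKN1A because the genes are compared here, with the same letters marked on both strands.

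INSIG1: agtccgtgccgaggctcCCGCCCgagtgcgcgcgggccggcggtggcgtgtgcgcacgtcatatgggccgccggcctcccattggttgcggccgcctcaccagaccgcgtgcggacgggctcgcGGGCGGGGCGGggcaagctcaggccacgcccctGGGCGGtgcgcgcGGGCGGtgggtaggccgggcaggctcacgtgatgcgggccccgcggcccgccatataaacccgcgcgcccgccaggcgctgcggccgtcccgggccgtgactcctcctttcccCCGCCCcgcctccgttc

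It held 6 matches, 4 of GGGCGG and 2 of CCGCCC, a number reached by 2.91% of the promoter windows.

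The enzymes of the cholesterol pathway lay mostly on the same side as INSIG1 in each line. These genes are switched on together by SREBP factors when sterols run low. Of 22 tested genes of the list 0 passed, and 3 were higher and 0 lower in J-Lat A2 at an unadjusted p under 0.05 (all genes: 1.26% higher and 1.36% lower), while in Jurkat 0 were higher and 2 lower (all genes: 1.44% and 1.05%). The median log2 change was 0.36 in J-Lat A2, with 19 of 22 above 0, and -0.46 in Jurkat, with 3 of 22 above 0. Over all tested genes the medians were -0.02 and 0.00.

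IDI1, the isopentenyl diphosphate isomerase, was at 919, 347, 1663, 1813 and 1573 CPM in negative J-Lat A2 cells on P2449, P2458, P2769, P2770 and P2771. In positive cells it was at 1645, 487, 2439.7, 2448.9 and 2361.8 CPM, higher on each of the 5 plates, although the groups overlapped and P2458 was low in both. Its log2 change was 0.58 ± 0.13 in J-Lat A2 (edgeR p = 0.000495, adjusted p = 1.0) and -0.34 ± 0.16 in Jurkat. The third gene at an unadjusted p under 0.05 in J-Lat A2, the squalene synthase FDFT1, had a log2 change of 0.48 ± 0.16 there and -0.47 ± 0.21 in Jurkat.

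As a share of all counts in a cell, the list, INSIG1 included, had a median of 0.581% in positive and 0.328% in negative J-Lat A2 cells. The positive median was higher on each plate, by 2.06, 1.81, 1.39, 1.78 and 1.52 times in plate order. This share was not taken in stricter or depth-paired wells, and the part of poor negative cells in it was not tested. In Jurkat the medians were 0.408% and 0.406%, with the positive median lower on P2769 and P2771 (0.699 and 0.805 times) and higher on P2770 (1.43 times).

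**Figure D3:**
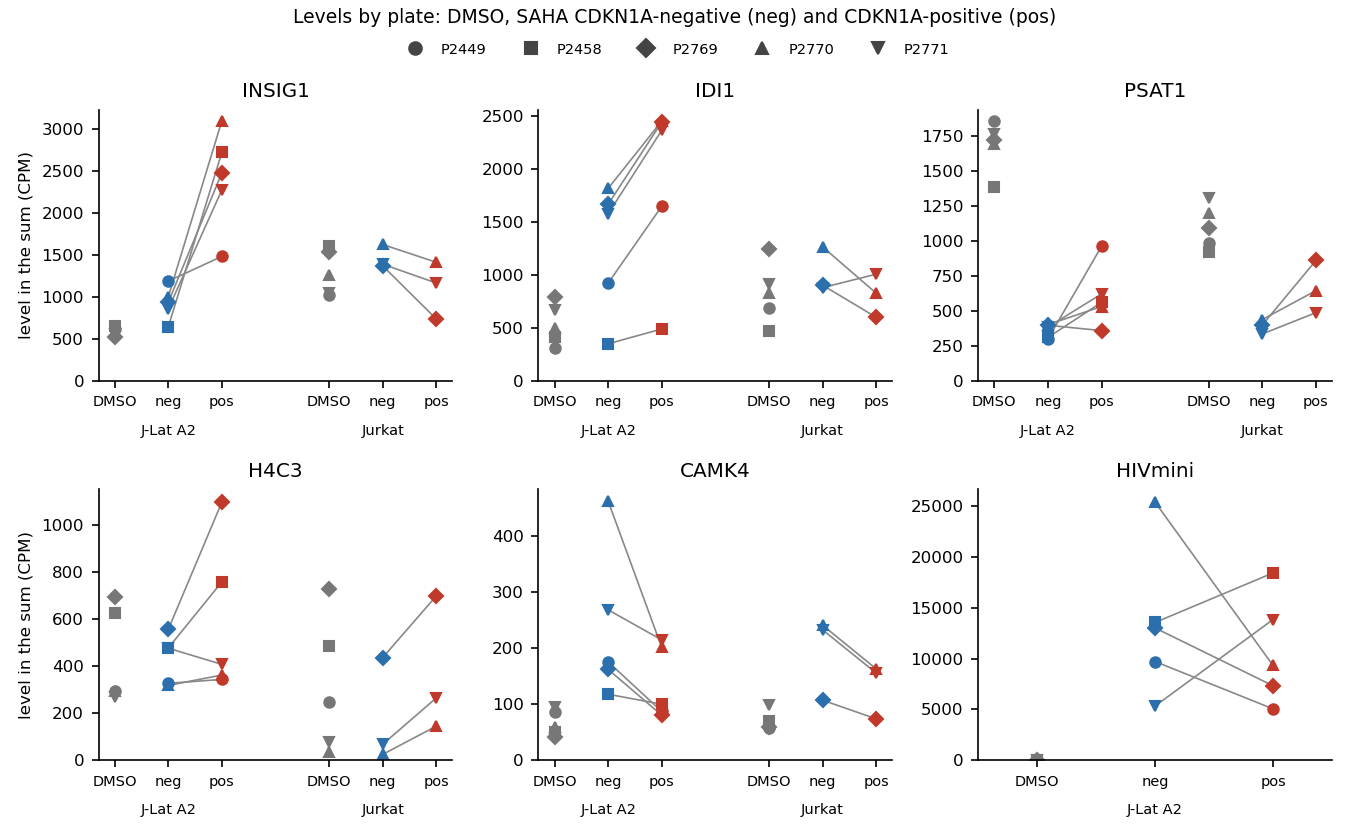
Level of 6 genes in CPM in the sum of each plate, for DMSO cells and for CDKN1A-negative (neg) and CDKN1A-positive (pos) cells with SAHA, with lines joining the classes of a plate. Every line of INSIG1 goes up in J-Lat A2 and down in Jurkat, every line of CAMK4 goes down, and lines of HIVmini cross, going up on 2 of 5 plates.

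The genes of lowest p in the mean of both lines that had the same sign in each are given as values, since none passed in the edgeR fit (adjusted p = 1.0 for all 10). All 10 passed with DESeq2 on the same sums, at adjusted p from 6.11e-05 (H4C3) to 0.0366 (RSRC2), and in none of their other alternatives. Among those higher in positive cells was H4C3, a replication-dependent histone H4 gene that is made in S phase. Negative J-Lat A2 cells had 327, 478, 558, 318 and 477 CPM and positive cells 344, 760, 1099, 363 and 408 CPM on P2449, P2458, P2769, P2770 and P2771. Jurkat had 437, 24.85 and 67.9 CPM in negative and 699.6, 145.01 and 265.3 CPM in positive cells on P2769, P2770 and P2771, so the sums were higher in 3 of 3 plates. The median cell did not follow the sums: it had 26.2 CPM when positive and 34.6 CPM when negative in Jurkat, lower in positive cells on P2769 and P2770 (0.704 and 0.241 times) and higher on P2771 (2.95 times). H4C3 was read in 14 of 18 positive and 17 of 18 negative Jurkat cells. The mean log2 change was 1.02 ± 0.20, with 0.34 ± 0.23 in J-Lat A2 and 1.71 ± 0.32 in Jurkat (edgeR adjusted p = 0.687 for Jurkat). In Jurkat the richest cell held 44.1% of the positive and 62.6% of the negative reads of H4C3, so this value rests on few cells. Without P2769 the Jurkat value passed (2.26 ± 0.28, edgeR adjusted p = 0.0299).

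PSAT1, the phosphoserine aminotransferase of serine synthesis, was 1 of the genes that SAHA lowers. It was at 356 ± 50.0 CPM (SD, n = 5 plates) in negative and 604 ± 221 CPM in positive J-Lat A2 cells, against 1681 ± 178.8 CPM with DMSO. On the plates the positive cells held 959, 559, 357, 529 and 619 CPM and the negative cells 296, 308, 395, 399 and 382 CPM, so the positive sums were higher on 4 of 5 plates, and those of Jurkat were higher on 3 of 3 (388 ± 51.9 against 662 ± 187.4 CPM, n = 3). The median cell had 390 CPM when positive and 151.8 CPM when negative in J-Lat A2, but was lower in positive cells on P2769 and P2771 (0.712 and 0.765 times). In Jurkat it had 524.9 and 365.2 CPM, and was lower in positive cells on P2770 (0.961 times). The mean log2 change was 0.72 ± 0.17, nearly the same in J-Lat A2 (0.70 ± 0.21) and Jurkat (0.74 ± 0.27). PHGDH, the enzyme that starts the same pathway, had 0.26 ± 0.14 in J-Lat A2 and 0.01 ± 0.18 in Jurkat.

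The lysosomal alpha-galactosidase GLA (0.93 ± 0.21), the splicing regulator PTBP3 (1.12 ± 0.27) and the bleomycin hydrolase BLMH (0.91 ± 0.22) completed the higher genes. GLA had 125.1, 79.2, 97.5, 30.5 and 87.4 CPM in negative and 116.4, 181.5, 154.8, 61.4 and 124.1 CPM in positive J-Lat A2 cells in plate order. In Jurkat it had 77.4, 64.3 and 45.7 CPM in negative and 169.9, 128.4 and 127.9 CPM in positive cells. It was read in 39 of 53 positive and 34 of 82 negative J-Lat A2 cells. PTBP3 was read in 14 of 18 positive and 9 of 18 negative Jurkat cells.

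CAMK4, a calcium/calmodulin-dependent kinase active downstream of the T cell receptor, was lower in positive cells in 8 of 8 plate pairs, as were 43 tested genes (0.393%). Negative J-Lat A2 cells had 175.04, 117.4, 161.7, 461.2 and 267.7 CPM, and positive cells 86.8, 99.7, 80.2, 200.8 and 214.2 CPM. Jurkat had 106.9, 240.4 and 232.1 CPM in negative and 73.7, 162.7 and 155.2 CPM in positive cells. The classes overlapped in both lines, and the DMSO sums of J-Lat A2, at 42.2 to 94.97 CPM, lay below every negative sum. The mean log2 change was -0.66 ± 0.16.

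FAM133B was lower in 8 of 8 pairs as well, with a mean log2 change of -0.55 ± 0.15. Its level was 389 ± 120.7 CPM in negative and 230 ± 79.2 CPM in positive J-Lat A2 cells (SD, n = 5). The kinetochore protein SPDL1 (-0.48 ± 0.13) and RSRC2 (-0.61 ± 0.17) were lower in 7 of 8 pairs each. SPDL1 in Jurkat stood at 407, 454 and 461 CPM in negative and 287, 314 and 324 CPM in positive cells. ZNF235 also met the rule, but had reads in 0 of 18 positive and 3 of 18 negative Jurkat cells, so its fitted change is not given. In the other direction, 35 genes (0.32%) were higher in positive cells in all 8 pairs.

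No tested gene on the list of CDK inhibitors, or on that of G1 and S phase cyclins, kinases and related genes, passed. Of the CDK inhibitors 4 of 7 were tested, with a median log2 change of -0.03 in J-Lat A2 and -0.14 in Jurkat, and 0 had an unadjusted p under 0.05. CDKN3 had 0.09 ± 0.15 and -0.26 ± 0.19, CDKN2D 0.02 ± 0.31 and -0.02 ± 0.40, and CDKN1B, which encodes p27, was near the limit of detection at 3.87 CPM. Among 16 tested genes on the list of G1 and S phase cyclins, kinases and related genes the medians were 0.09 and 0.01. At an unadjusted p under 0.05, 1 gene was lower in Jurkat (CCND3, all genes: 1.05%). In the mean of both lines 1 was lower at that p (RBL2, -1.40 ± 0.63, all genes: 1.25%). CDK6 had a mean change of 0.17 ± 0.13 and PCNA, the sliding clamp that p21 binds, -0.15 ± 0.14. The cyclin CCND3, chosen after its values were seen, had 0.01 ± 0.14 in J-Lat A2 and -0.43 ± 0.19 in Jurkat (edgeR p = 0.0409, adjusted p = 1.0).

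Among cell cycle phase genes 0 passed as well. The medians of 42 S phase genes were 0.05 in J-Lat A2 and 0.12 in Jurkat, and those of 54 G2 and M phase genes -0.02 and -0.07. At an unadjusted p under 0.05, 4 G2 and M genes were lower and 0 higher in J-Lat A2 (all genes: 1.36% and 1.26%). In Jurkat 1 was lower and 2 were higher at that p (all genes: 1.05% and 1.44%). Of the S phase genes, 3 were higher and 1 lower in the mean of both lines (all genes: 1.66% and 1.25%). Per cell, G2 and M genes took a median of 2.35% of counts in positive and 2.31% in negative J-Lat A2 cells. The plates went in opposite directions. The positive median was lower on P2449, P2458 and P2769 (0.69, 0.895 and 0.67 times) and higher on P2770 and P2771 (1.38 and 1.5 times). In Jurkat the medians were 2.85% and 2.98%, with the positive median higher on P2769 (1.12 times) and lower on P2770 and P2771 (0.953 and 0.934 times). S phase genes took a median of 0.818% in positive and 0.728% in negative J-Lat A2 cells, and 0.757% and 0.692% in Jurkat. By plate, the positive J-Lat A2 median was higher on P2449, P2458, P2769 and P2771 (1.025, 1.18, 1.16 and 1.05 times). It was lower on P2770 (0.931 times). In Jurkat the positive median was lower on P2769 and P2770 (0.967 and 0.954 times) and higher on P2771 (1.03 times). RRM2, the small subunit of ribonucleotide reductase, had the mean change 0.43 ± 0.15 (edgeR p = 0.0149, adjusted p = 1.0), and the mitotic cyclin CCNB1 -0.30 ± 0.15.

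Among other targets of p53, 0 passed. Of 26 listed genes 22 were tested, with medians of 0.03 in J-Lat A2 and -0.26 in Jurkat, and 1, the death receptor FAS (2.03 ± 0.75 at 30.9 CPM), was higher at an unadjusted p under 0.05 in the mean of both lines (all genes: 1.66%). CCNG1 had a mean change of -0.43 ± 0.28, XPC 0.11 ± 0.26 and MDM2, the ubiquitin ligase of p53, -1.21 ± 0.86 at 27.1 CPM. Transcripts of 13 factors known to act on the CDKN1A promoter had medians of 0.23 and 1.03. All 13 had values above 0 in Jurkat, against 50.95% of all tested genes, but 1 of them, RUNX1 (1.92 ± 0.75), had an unadjusted p under 0.05, and the median level of the 13 was 19.8 CPM. SP3, which binds the GC boxes, had 0.35 ± 0.48 and 0.41 ± 0.58, and SP1 was at 11.02 CPM, where its change (-2.23 ± 1.71 and 0.69 ± 2.90) could not be resolved.

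Of the enzymes that SAHA inhibits and of the neighbours of CDKN1A, 0 passed. The 11 histone deacetylases had medians of 0.06 and -0.03, with HDAC1 at -0.09 ± 0.13 and HDAC2 at 0.01 ± 0.18 in the mean of both lines. Of 13 listed neighbours of CDKN1A on chromosome 6, 9 were tested and 0 had an unadjusted p under 0.05. SRSF3, a splicing factor on the same arm, had 0.19 ± 0.14 and PPIL1 -0.09 ± 0.22.

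**Figure D4:**
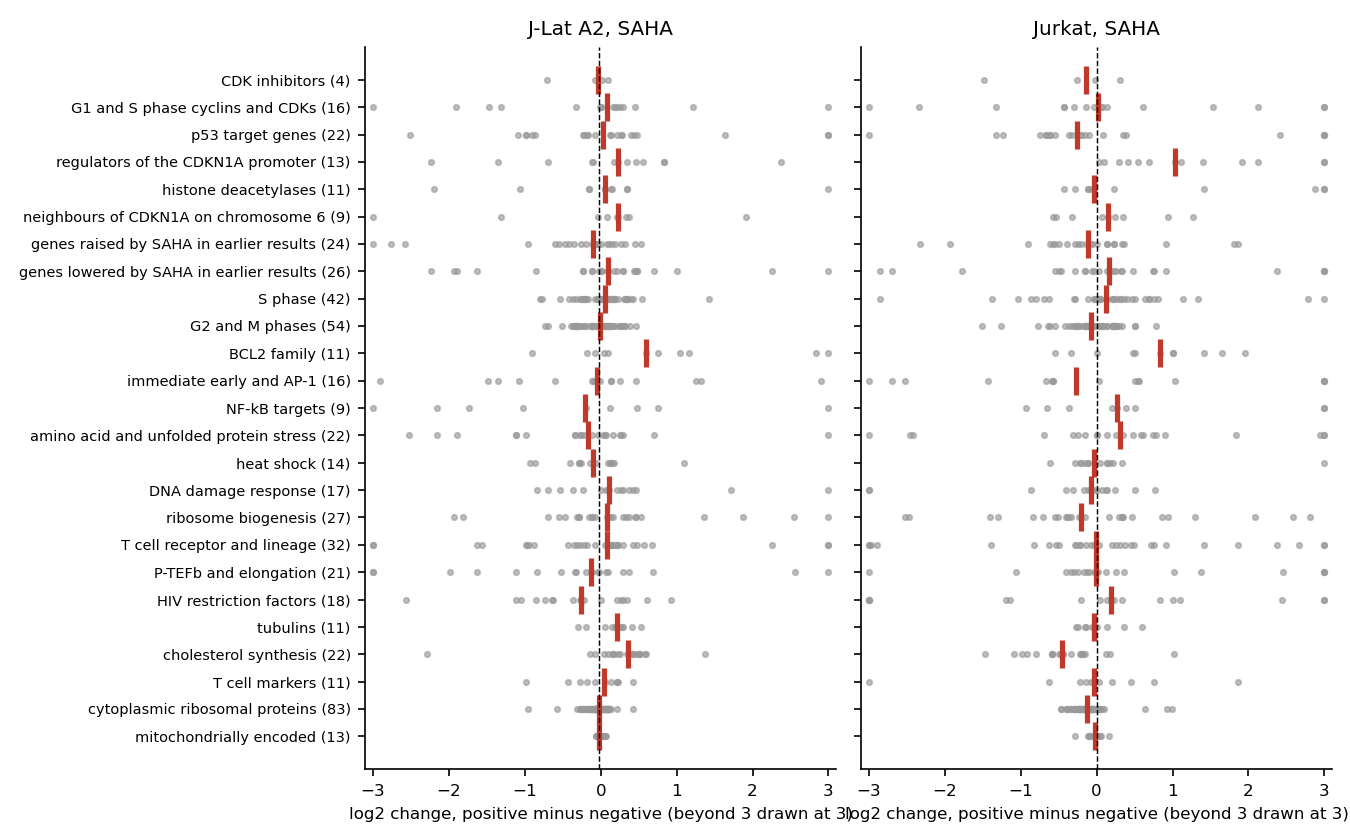
Log2 change, positive minus negative, of each tested member (grey) and the median (red) of the lists with at least 4 tested members, with their number in brackets, in J-Lat A2 and Jurkat; the dashed line is the median of all tested genes. The cholesterol list has medians of 0.36 and -0.46, while phase, ribosomal and mitochondrial lists lie near 0.

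In the remaining lists 0 genes passed as well. None had more than 3 genes in 1 direction at an unadjusted p under 0.05 in J-Lat A2, Jurkat or their mean. The G2 and M phase list above, with 4 of 54 lower in J-Lat A2 (all genes: 1.36%), was the exception. BCL2 family genes, at a median level of 16.7 CPM, had medians of 0.60 in J-Lat A2 and 0.83 in Jurkat, with 0 of 11 at an unadjusted p under 0.05. The stress genes of the amino acid and unfolded protein response had -0.17 and 0.31, and 3 of 22 were higher in Jurkat at that p (all genes: 1.44%). Heat shock genes had -0.10 and -0.04, with 2 of 14 lower in J-Lat A2 at that p (all genes: 1.36%), DNA damage response genes 0.11 and -0.07, ribosome biogenesis genes 0.09 and -0.21, and 83 ribosomal protein genes -0.03 and -0.13. T cell receptor and lineage genes had 0.09 and -0.00, among them LEF1 with a mean change of 0.43 ± 0.17 and TRBC1 with -0.45 ± 0.21.

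In the SAHA response genes named next, cells without CDKN1A reads lay with the positive cells and apart from DMSO. These genes came from earlier SAHA results of these data or were chosen after their values were seen. Since the negative cells are themselves a large part of the SAHA cells, their distance from DMSO is a description and no test. The tubulin TUBB4B was at 614 ± 34.3 CPM with DMSO, 2896 ± 500 CPM in negative and 3365 ± 942 CPM in positive J-Lat A2 cells (SD, n = 5 plates). In Jurkat it was at 710 ± 90.2 CPM (n = 5), 2800 ± 251 CPM and 2542 ± 154.9 CPM (n = 3). Every SAHA sum of either class lay above every DMSO sum in both lines. The difference of the classes was 0.19 ± 0.18 in J-Lat A2 and -0.14 ± 0.22 in Jurkat, with 95% intervals of -0.19 to 0.56 and -0.62 to 0.34.

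Genes at or near 0 with DMSO were read in both classes. The neuronal tubulin TUBB3 held 49.6, 65.9, 45.6, 64.2 and 76.1 CPM in negative and 110, 44.5, 96.0, 70.6 and 133.6 CPM in positive J-Lat A2 cells, against at most 0.678 CPM with DMSO. STAT4, a signalling factor of interleukin-12, held 90.6 ± 43.1 CPM in negative and 88.1 ± 28.55 CPM in positive cells (SD, n = 5), against at most 5.58 CPM with DMSO, and clusterin (CLU) 28.2 to 100 and 25.5 to 70.95 CPM. Genes that SAHA lowers were low in both, with IGLL1, a surrogate light chain, at 668 to 1642 CPM with DMSO, 2.20 to 27.6 CPM in negative and 2.45 to 24.5 CPM in positive cells, and MYC at 167.7 to 362.6, 13.5 to 33.3 and 11.3 to 57.03 CPM. The 24 genes raised and 26 genes lowered by SAHA in earlier results of these data had medians of -0.10 and 0.10 between the classes in J-Lat A2, and -0.11 and 0.16 in Jurkat.

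**Figure D5:**
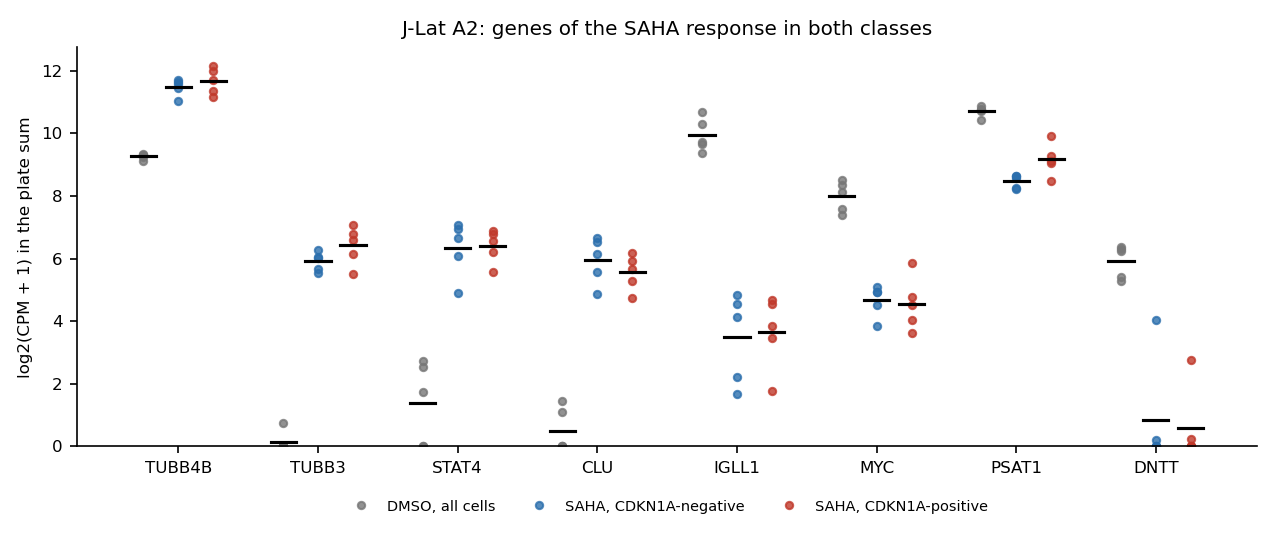
Level of 8 genes in J-Lat A2 as log2(CPM + 1), with 1 point per plate and the mean as a line, for DMSO cells and for CDKN1A-negative and CDKN1A-positive cells with SAHA. The 2 SAHA classes lie together and apart from DMSO for TUBB4B, TUBB3, STAT4, CLU, IGLL1, MYC and DNTT, and PSAT1 is lower than with DMSO in both. Genes other than PSAT1 were chosen with their SAHA response known, so their distance from DMSO is no test.

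DHRS2, a reductase gene that stays silent with DMSO and was read in few SAHA cells, was found in 7 of 53 positive and 11 of 82 negative J-Lat A2 cells (13.2% and 13.4%). The richest cell held 60.3% of the positive reads, and its log2 change of -2.58 ± 1.29 (edgeR p = 0.0696, adjusted p = 1.0) was not resolved. Jurkat had no read in either class.

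The HIV construct was read in 42 of 53 positive J-Lat A2 cells (79.2%, exact 95% interval 65.9 to 89.2) and in 56 of 82 negative cells (68.3%, 57.1 to 78.1). The share was higher in positive cells by 16.8, 17.95 and 41.7 percentage points on P2449, P2458 and P2771, and the difference was -21.7 and -6.67 points on P2769 and P2770. The mean difference was 9.62 points, within the spread of plates (exact two-sided sign-flip permutation p = 0.5, smallest possible 0.0625). Its level was 9707, 13553, 13012, 25381 and 5337 CPM in negative and 5050, 18424, 7321, 9318 and 13841 CPM in positive cells in plate order, higher on 2 of 5 plates. The log2 change was -0.30 ± 0.33 (edgeR p = 0.382, adjusted p = 1.0), against at most 0.624 CPM with DMSO. 

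The same split could be made among PMA cells on few plates. Sums of at least 3 positive cells existed for J-Lat A2 on P2770 (6 positive, 21 negative cells) and P2771 (4 and 22) and for Jurkat on P2771 (4 and 8), and plates with fewer were dropped, which left 1 residual degree of freedom. edgeR called 0 of 11059 genes (0.0%) in the mean of both lines, and 355 (3.21%) had an unadjusted p under 0.05. INSIG1 was at 399 and 378 CPM in negative and 617 and 614 CPM in positive J-Lat A2 cells, and at 638 and 738 CPM in Jurkat, with a log2 change of 0.66 ± 0.24 in J-Lat A2 (edgeR p = 0.0272, adjusted p = 1.0). PSAT1 was higher in positive cells in 3 of 3 pairs (562, 888.5 and 277 CPM against 799, 1034 and 500 CPM; mean change 0.61 ± 0.21). CAMK4 was higher in 1 of 3 pairs, and H4C3 in 2 of 3. RRM2, GMNN and PCNA, picked here after their PMA values were seen, had mean changes of 1.49 ± 0.24, 1.11 ± 0.29 and 0.90 ± 0.24. In J-Lat A2 alone these were 0.50 ± 0.28, 0.78 ± 0.33 and 0.48 ± 0.27.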

How the data were processed

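The authors deposited expected counts per gene for each well, made with Salmon 1.5.1 and alevin against GRCh38.p13, per the submitters' processing notes; no molecular identifiers were used, so counts are reads and not molecules. Wells with at least 0.1 of their plate's median total and 500 genes were kept, which left 19756 to 984418 counts per SAHA cell. The counts of kept cells were summed per line, plate and class (at least 3 cells a sum, 2043606 to 8381512 counts) and rounded. edgeR 4.0.16 (R 4.3.3) fitted all 16 sums with TMM scaling and filterByExpr, and its quasi-likelihood test compared classes with plate within line as a block, since both classes of a pair come from the same plate. p-values were adjusted by Benjamini-Hochberg over 10953 genes, and a gene passed at an adjusted p of 0.05. CDKN1A counted toward library sizes only. SE is the log2 change over the square root of F, and levels are TMM-scaled CPM with DMSO sums scaled alongside. Ratios per plate and shares of cells used exact sign-flip permutation tests (SciPy 1.17.1). Alternatives were thinning, depth pairing, other thresholds and filters, DESeq2 1.42.0, limma 3.58.1, no block, sums per batch and leaving out each plate. The scripts were tested on simulated data.

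The members and the 29 gene lists were chosen with earlier results of these data known. Genes were named by rule: HIVmini, the 5 of lowest p in each direction of the mean contrast with the same sign in both lines, at least 20 CPM and reads in 10 cells, and the 2 most abundant tested members of each list. CCND3, RBL2, FAS, RUNX1, SP1, SP3, CDKN1B, MDM2, FDFT1, TUBB3, STAT4, CLU, IGLL1, MYC, DNTT, DHRS2, RRM2, CCNB1, LEF1, TRBC1, PHGDH and GTSF1 were added after their values were seen, unless the rule also named them. Promoter windows are from RefSeq. Some genes of the lists are not reported here by name.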

Additional observations from a re-analysis of the deposited data

Results flagged for a closer look

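INSIG1 stood out because the lines moved in opposite directions: it was higher in CDKN1A-positive cells on each of the 5 J-Lat A2 plates and lower on each of the 3 Jurkat plates. The difference of the log2 changes, J-Lat A2 minus Jurkat, was 1.83 ± 0.32 (edgeR interaction p = 7.02e-05, adjusted p = 0.769), which did not pass over all genes. Such opposite signs on every plate, in either order, were found for 67 of 10953 tested genes (0.612%). Among 16 groups of 5 plates screened for a plate far from the others, 0 were found.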

How the results depend on the processing

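The ratio of well totals (1.01) turned to 0.984 with classes paired by depth and 0.952 in wells with at least 2000 genes, and to 0.995 and 0.982 without P2449 and P2458. With no filter on wells it was 1.94. The ratio of genes detected (1.08) was no longer past the threshold after thinning (1.04), with status taken from thinned counts (1.03), with depth pairing (1.03), in the stricter wells (1.03), or without any 1 plate (1.06 to 1.11). With no filter on wells it was 1.77 (exact permutation p = 0.0156). Against 0 genes called, J-Lat A2 had 1 after thinning, 1 with limma, 1 with no filter on low counts and 91 with DESeq2. Without the replicate block it had 2, INSIG1 and MID1 (edgeR adjusted p = 0.0214 for both). Leaving out plates gave 0 to 1, INSIG1 without P2449. Jurkat had 89 with DESeq2 and 0 to 1 on leaving out plates, H4C3 (2.26) without P2769 and GTSF1 (5.03) without P2771. The mean of both lines had 94 and 0 to 1, GTSF1 (2.56) without P2771. The difference of the lines had 77, 1 with no filter on low counts, and 0 to 1 on leaving out plates, INSIG1 (2.08) without P2449 and GTSF1 (-4.93) without P2771. In the mean of both lines with PMA, thinning gave 10 and DESeq2 364. Those called after thinning were higher in positive cells for RRM2 (1.48), H2AZ1 (1.03), TYMS (0.95), FAM111B (2.25), CPSF6 (1.57), SCAF11 (1.62) and MB (2.05). They were lower for CD84 (-2.59), NOP2 (-5.38) and PI16 (-1.18). Some of these genes were near the limit of detection in the SAHA sums. MB had a mean of 0.0277 CPM there, with a read in 1 SAHA cell. CD84 and PI16 had 8.23 and 10.0 CPM, against 4436 CPM for H2AZ1. The cause of these changes was not tested. Of 1091 alternative values of 65 named genes with no call, 1074 moved by less than 1 SD over plate pairs. The PMA comparison could not be fitted with status from thinned counts or without P2770 or P2771, which left no residual degrees of freedom.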
